A study of Mus musculus with 6 samples.

Results

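Pparg, Csf2, Il3, Il1rl1 and Areg were examined in cultured mouse CD4 T cells with and without Ezh2. The genes are Pparg, a nuclear receptor, and 4 genes known as effector genes of inflammatory Th2 cells. Members were all probe sets that the platform's annotation table assigns to exactly 1 of these 5 symbols. Of the 5 genes, 3 had such a probe set, 1 each: Pparg (1420715_a_at), Csf2 (1427429_at) and Il3 (1450566_at), among 18193 genes named on the array. No value is given for Il1rl1, which encodes the IL-33 receptor ST2, or for Areg, which encodes the EGF family ligand amphiregulin; they were not analysed here. Pparg and Csf2 had enough signal to enter the fit across 11572 genes, and Il3 did not. The 5 genes were chosen by their measured differences between Ezh2 KO and wild type on these arrays, so those differences are given below as a description, without a test.

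The study hybridized RNA from 6 cultures to 6 arrays, 1 for each combination of genotype and culture. Naive CD4 T cells (CD44 low, CD62L high) from the spleens of C57BL/6 mice, Ezh2 KO or wild type, were cultured for 5 days. For the first 2 days all cells were activated through coated anti-TCRβ (10 µg/ml) and anti-CD28 (1 µg/ml), which were left out for the last 3 days, and all media held IL-2 (15 ng/ml). The 3 conditions were Th2 (10 ng/ml IL-4 with an antibody to interferon gamma), Th1 (1 ng/ml IL-12 with an antibody to IL-4) and unpolarized (both blocking antibodies, no added IL-4 or IL-12). The labels state neither how Ezh2 was deleted nor how many mice gave the cells. With 1 array per combination, the spread behind the p-values below is how far genotype differences varied between cultures, mixed with array noise. These cannot be told apart, no group was repeated, and part or all of the spread may be technical. In bulk RNA, fewer cells that express a gene and less RNA per cell cannot be told apart.

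Values are the authors' deposited intensities, scaled to the same trimmed mean of 500.003 on every array. Readings under 11.3 (the 20th percentile of all values, used as a floor) have no order, and readings under 64.4 (the median of all values, called the low-signal limit below) are dim, so folds over them are uncertain in size. The probe set of Ezh2, the catalytic subunit of Polycomb repressive complex 2 (PRC2), read 4946, 4876 and 4971 in the Ezh2 KO Th2, Th1 and unpolarized cultures, against 7677, 6553 and 7002 in the matching wild type cultures. It fell by 0.52 ± 0.11 on the log2 scale (SD, n = 3 cultures), so much Ezh2 signal remained in the arrays labelled Ezh2 KO. Whether that probe set lies in the deleted part of the gene is not known here.

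PPARγ, the product of Pparg, is a nuclear receptor that binds fatty acid ligands, pairs with a retinoid X receptor (RXR) and switches on genes of lipid uptake and storage. In T cells it is known for Th2 cells and for regulatory T cells of fat tissue, and in mouse Th2 cells it is known to be needed for full ST2 expression. Csf2 encodes GM-CSF and Il3 encodes interleukin 3, secreted growth factors of myeloid cells and mast cells that share a receptor chain with IL-5. Both genes lie next to each other on mouse chromosome 11, in the cluster that also holds Il4, Il13 and Il5. PRC2 methylates histone H3 at a repressive lysine mark, and in mammals it is found mainly at silent promoters rich in CpG dinucleotides.

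The 250 bases before annotated transcription starts are shown for Pparg, Csf2 and Il3 because their CpG content differs. CpG dinucleotides are in capitals. The sequences are from RefSeq, build GRCm38.p6, 5′ to 3′ on the gene's own strand. Pparg start 1 lies at chr6:115360894-115361143 (plus strand), Pparg start 3 at chr6:115421816-115422065 (plus strand), Csf2 at chr11:54249900-54250149 (minus strand) and Il3 at chr11:54267280-54267529 (minus strand).
Pparg start 1: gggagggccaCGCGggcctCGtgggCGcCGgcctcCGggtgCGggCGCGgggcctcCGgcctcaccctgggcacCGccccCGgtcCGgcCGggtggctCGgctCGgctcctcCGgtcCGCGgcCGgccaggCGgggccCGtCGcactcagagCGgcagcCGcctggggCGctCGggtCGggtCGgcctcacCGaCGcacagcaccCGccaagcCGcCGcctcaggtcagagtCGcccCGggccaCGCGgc
Pparg start 3: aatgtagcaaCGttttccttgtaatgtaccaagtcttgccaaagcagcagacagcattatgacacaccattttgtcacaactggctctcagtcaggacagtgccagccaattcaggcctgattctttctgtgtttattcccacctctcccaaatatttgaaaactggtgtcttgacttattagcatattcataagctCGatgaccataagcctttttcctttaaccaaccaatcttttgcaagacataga
Csf2: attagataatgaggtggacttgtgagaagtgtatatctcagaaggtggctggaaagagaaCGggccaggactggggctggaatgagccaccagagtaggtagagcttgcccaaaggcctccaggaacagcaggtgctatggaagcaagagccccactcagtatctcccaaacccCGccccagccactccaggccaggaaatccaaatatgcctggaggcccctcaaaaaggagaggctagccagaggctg
Il3: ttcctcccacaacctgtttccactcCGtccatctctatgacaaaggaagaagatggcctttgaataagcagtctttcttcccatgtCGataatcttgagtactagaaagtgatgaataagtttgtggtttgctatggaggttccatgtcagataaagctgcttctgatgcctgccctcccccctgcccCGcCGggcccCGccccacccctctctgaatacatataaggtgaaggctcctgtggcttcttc

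The window before Pparg start 1 held 38 CpG dinucleotides at a G and C content of 82.4%, and 98.1% of 32851 annotated mouse starts had fewer. The window before Pparg start 2, at chr6:115362099-115362348, held 12 CpG dinucleotides, and the one before start 3 held 2. Csf2 held 2 CpG dinucleotides and Il3 held 5, against a median of 6 over all starts. The probe set reads Pparg as 1 value, so which start its signal came from cannot be told. The core letters bound by NFAT, GGAAA, occurred on either strand 2 times before Csf2, 1 time before Il3, 2 times before Pparg start 3 and 0 times before Pparg start 1, and 55.6% of all starts held them. The GATA letters AGATAA occurred 1 time before Csf2 and 1 time before Il3 (9.99% of all starts), the RUNX letters TGTGGT 1 time before Il3 and not before Csf2 (14.0% of all starts), and the AP-1 letters TGANTCA before none of the 3 genes (6.75% of all starts). Matches were counted on both strands, and no 2 of these motifs contain each other.

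Pparg was far higher in Ezh2 KO in each culture and had its highest reading in Th2 conditions in both genotypes. It read 1272, 413 and 307 in the Ezh2 KO Th2, Th1 and unpolarized cultures, against 64.9, 24.2 and 18.5 in the matching wild type cultures. The lowest Ezh2 KO reading was 4.74 times the highest wild type reading. Wild type Th1 and unpolarized readings were under the low-signal limit and wild type Th2 lay just above it. The fold was 19.6 in Th2, 17.1 in Th1 and 16.6 in unpolarized cultures, a mean log2 difference of 4.15 ± 0.13 (SD, n = 3 cultures). With the floor raised to the 40th percentile, which lifts the wild type Th1 and unpolarized readings, the mean was 3.60.

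Csf2 was also far higher in Ezh2 KO, to nearly the same extent in all cultures. It read 1256, 1164 and 1216 in the Ezh2 KO Th2, Th1 and unpolarized cultures, against 105, 93.9 and 108 in the matching wild type cultures. The lowest Ezh2 KO reading was 10.7 times the highest wild type reading, and all 6 readings were above the low-signal limit. The fold was 11.96 in Th2, 12.4 in Th1 and 11.2 in unpolarized cultures, a mean log2 difference of 3.57 ± 0.07 (SD, n = 3 cultures). Wild type Csf2 was about as high in Th2 as in unpolarized cultures.

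Il3 gave no measurable signal. It read 4.20, 31.6 and 4.96 in the Ezh2 KO Th2, Th1 and unpolarized cultures, against 6.93, 2.20 and 7.90 in wild type. All 6 readings were under the low-signal limit, and 5 of them were under the floor. The Ezh2 KO Th1 reading was the 1 above the floor. No fold is given, and whether Il3 differed between genotypes was not detectable. Il3 is the direct neighbour of Csf2 on the chromosome, and only Csf2 of the pair gave readings above the low-signal limit.

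**Figure D1:**
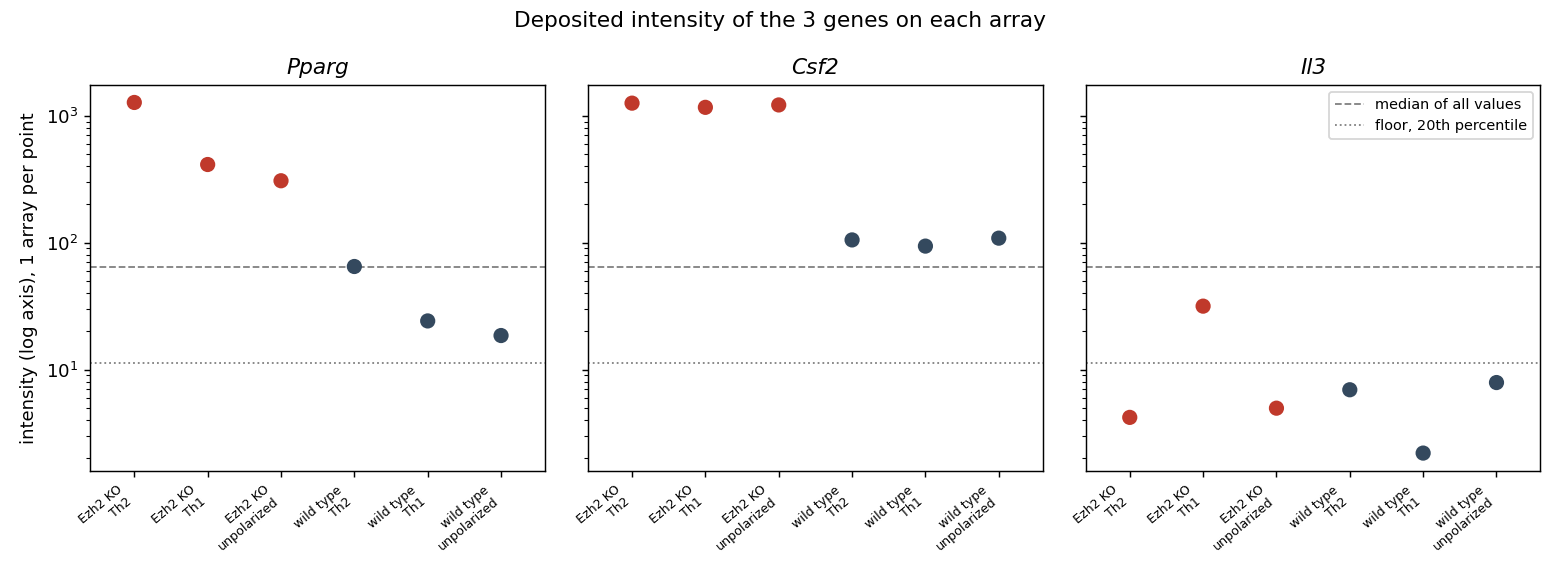
Deposited intensity (log axis) of Pparg, Csf2 and Il3 on each of the 6 arrays, 1 point per array, Ezh2 KO in red and wild type in blue, with the low-signal limit (64.4, dashed) and the floor (11.3, dotted). Pparg stands between 307 and 1272 in Ezh2 KO and between 18.5 and 64.9 in wild type, Csf2 between 1164 and 1256 against 93.9 and 108, and Il3 under the dashed line throughout.

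As background for these folds, 445 of the 11572 genes tested (3.85%) were higher in Ezh2 KO by 2-fold or more in every culture, and 43 (0.372%) by 10-fold or more in every culture, and Pparg and Csf2 are in each of these higher sets. In the other direction, 133 genes (1.15%) were lower by 2-fold or more in every culture. By mean difference Pparg ranked 32 and Csf2 54 of 11572. Beside the 445 genes, the genotype difference varied little between cultures. Of these genes, 8.76% had a smaller SD over the 3 cultures than Pparg and 2.47% a smaller SD than Csf2. Over all 11572 genes tested, these shares were 30.6% for Pparg and 12.5% for Csf2. These values come from the contrast that chose the genes.

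Differences between cultures were tested with limma, with genotype as a block (n = 2 arrays per culture). The genes were chosen with earlier results of these same arrays known, so these contrasts may not be independent of that choice. Pparg was 2.88-fold higher in Th2 than in Th1 cultures (log2 1.52, 95% interval 1.19 to 1.86, before adjustment) and 3.81-fold higher in Th2 than in unpolarized cultures (log2 1.93, 1.60 to 2.26). Neither passed after Benjamini-Hochberg adjustment in limma (adjusted p = 0.405 and 0.491, unadjusted p = 0.00032 and 0.000137), and Pparg ranked 7 and 2 of 11572 genes by p. No gene passed in any of the 3 contrasts (0% called), whereas 7.59% of genes had an unadjusted p under 0.05 for Th2 against Th1, 6.70% for Th2 against unpolarized and 5.46% for Th1 against unpolarized cultures. On simulated arrays the same test recovered 90% of genes changed by log2 2 between Th2 and Th1 cultures and 0% of genes changed by log2 1. Those arrays held 200 genes changed by an equal amount on otherwise flat values with independent noise. Such recovery therefore does not show that a culture change of that size would pass on the real arrays.

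The Pparg step with Th2 conditions was seen in each genotype. In Ezh2 KO the Th2 reading was 3.08 times the Th1 and 4.14 times the unpolarized reading. In wild type it was 2.68 times the Th1 and 3.50 times the unpolarized reading, with the dim readings noted above. Pparg was 1 of 24 genes tested (0.207%) that were higher by 2-fold or more in Th2 than in both other cultures in both genotypes. Between Th1 and unpolarized cultures Pparg differed by log2 0.40 (0.07 to 0.74), which did not pass (limma adjusted p = 0.857). Its order of levels was therefore Th2, Th1, unpolarized within each genotype, with the lower pair of cultures apart by 1.34-fold in Ezh2 KO and 1.30-fold in wild type. Whether the genotype difference itself depends on culture has no test with 1 array per group.

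Csf2 showed no detectable culture difference. Its log2 difference was 0.14 (95% interval -0.16 to 0.43) for Th2 minus Th1, 0.00 (-0.29 to 0.29) for Th2 minus unpolarized and -0.14 (-0.43 to 0.16) for Th1 minus unpolarized cultures, with limma adjusted p from 0.753 to 0.999. The highest culture exceeded the lowest by 1.08-fold in Ezh2 KO and 1.16-fold in wild type. The 2 genes thus shared the genotype difference, while only Pparg had a culture interval that excluded 0 before adjustment, and the difference between the genes was not tested.

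**Figure D2:**
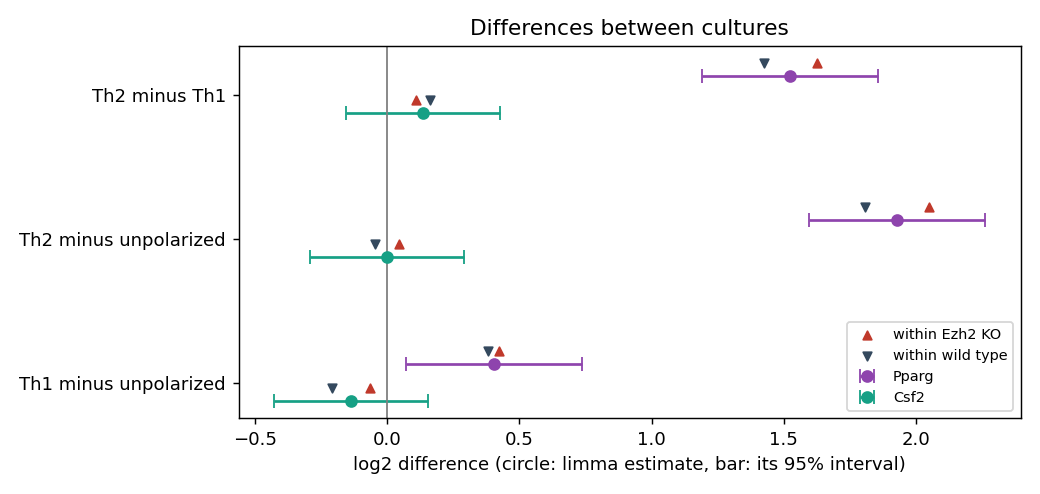
Log2 differences between cultures for Pparg (purple) and Csf2 (green): circles are limma estimates over both genotypes, bars their 95% intervals before adjustment (n = 2 arrays per culture), upward triangles the difference within Ezh2 KO and downward triangles within wild type. Pparg lies at 1.52 and 1.93 for Th2 against the other cultures, and all 3 Csf2 intervals include 0.

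The genes whose pattern over the 6 arrays came closest differed for Pparg and Csf2. Closeness was the root mean square difference of log2 values, each gene centred on its own mean, over 6 arrays. For Pparg the 4 nearest genes were Ltb4r1, a leukotriene B4 receptor (distance 0.36), the chemokine receptor gene Ccr2 (0.44), Havcr2, which encodes the inhibitory receptor TIM-3 (0.52), and the metalloprotease gene Adam8 (0.53). Ltb4r1 read 3930, 2325 and 1513 in the Ezh2 KO Th2, Th1 and unpolarized cultures, against 348, 132 and 131 in wild type, so its Th2 reading was also the highest in each genotype. Ccr2 read 3889, 1835 and 1806 in Ezh2 KO, against 189, 73.4 and 108 in wild type. Havcr2 was under the low-signal limit on all wild type arrays, and 1 of these was at the floor. Havcr2 was among the genes tested only through its Ezh2 KO readings, so its distance is uncertain.

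For Csf2 the 4 nearest genes were Cd160, a receptor of cytotoxic cells (0.21), the myosin gene Myo1f (0.21), the stress-induced gene Gadd45g (0.24) and Cd244a, a receptor of NK and memory T cells (0.24). Gadd45g read 11847, 11771 and 11145 in Ezh2 KO, against 1183, 1294 and 892 in wild type. Its culture readings lay close together in Ezh2 KO and spread more widely in wild type. Myo1f read 1274, 1180 and 1147 in Ezh2 KO, against 143, 88.2 and 92.7 in wild type. Cd244a was under the low-signal limit on all wild type arrays, and 1 of these was at the floor. Cd244a was among the genes tested only through its Ezh2 KO readings, so its distance is uncertain. Cd160 was under that limit on 2 wild type arrays. Csf2 stood at rank 34 among the genes nearest to Pparg, at a distance of 0.86, and Pparg at rank 185 among those nearest to Csf2. Pearson's r with their own gene was 0.97 or more for these 8 genes, and 0.93 between Pparg and Csf2. All points share the same 6 arrays in 2 genotypes, so r mostly reflects the genotype difference.

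**Figure D3:**
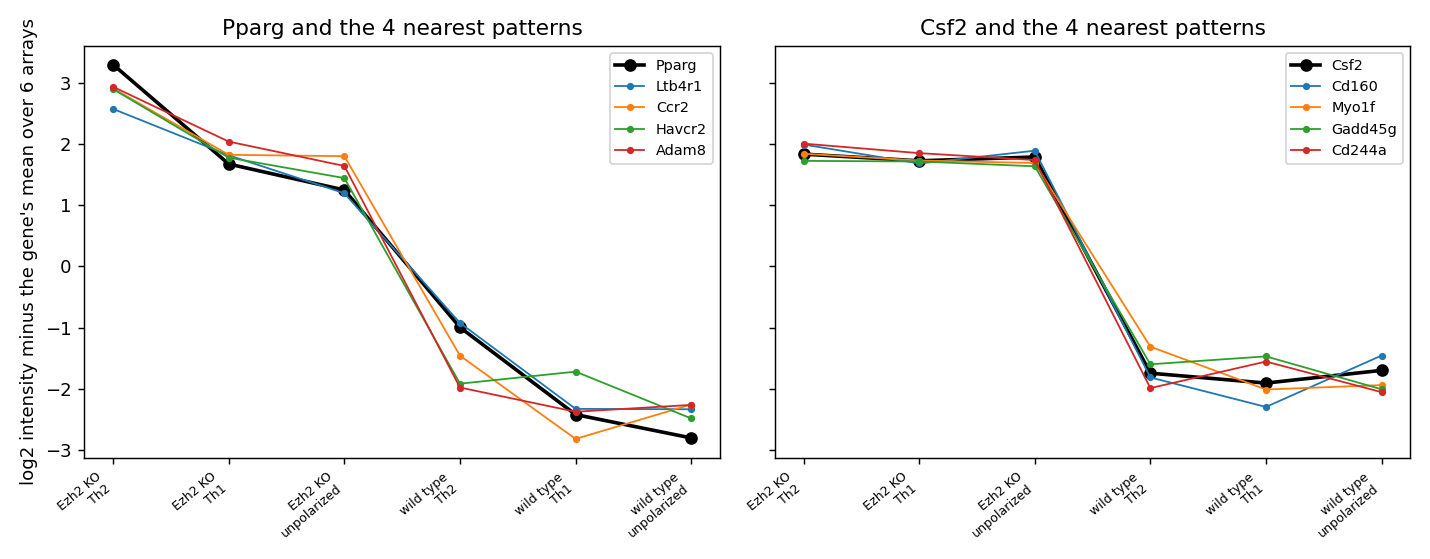
Log2 intensity minus the gene's own mean on each of the 6 arrays for Pparg (left, black) and Csf2 (right, black), each with the 4 genes nearest in pattern. On the left the Ezh2 KO Th2 array is highest for each gene, and on the right the 3 Ezh2 KO arrays are level.

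Other genes of the pathways were tested for the genotype difference with limma, with culture as a block and Benjamini-Hochberg adjustment over all 11572 genes. In that test 8.35% of genes passed as higher in Ezh2 KO and 7.98% as lower, and the median over all genes tested was -0.07 on the log2 scale. These were 966 higher and 924 lower genes, and with median centring 868 and 413. In 11 pathway and neighbour lists together, 113 distinct genes were tested, of which 23 rose and 9 fell. These counts became 0 without the filter on low values and with the arrays of any 1 culture left out, and with median centring they were 24 and 2. Counts below therefore rest on adjusted p-values not far under the threshold.

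Of 12 tested genes of the PPAR family and its coregulators, 0 rose and 1 fell, with a median of -0.17. Against the 8.35% higher and 7.98% lower among all genes, so few genes give no result about this group. The 1 that fell was Ncoa3, a coactivator of nuclear receptors, by 0.76 ± 0.21 (limma adjusted p = 0.0382). It missed the threshold with median centring (limma adjusted p = 0.0585) and, at log2 -0.42, when its probe sets were averaged (adjusted p = 0.0629). The RXR genes gave -0.42 ± 0.37 for Rxrb, which did not pass, and read from 166 to 238 in Ezh2 KO and 176 to 212 in wild type for Rxra. The acetyltransferase gene Ep300 (0.67 ± 0.34, adjusted p = 0.0732 in limma) and the coactivator gene Ppargc1b (-0.61 ± 0.24, adjusted p = 0.059 in limma) did not pass, and Ep300 passed with the filter at the 60th percentile, as Ppargc1b did there and with the higher floor. Ppara, Rxrg and Ppargc1a were too dim to test.

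Known PPARγ target and lipid genes moved in both directions. Of 15 tested, 2 rose and 4 fell, with a median of 0.20, and with median centring 2 fell. Over all genes tested, 8.35% passed as higher and 7.98% as lower. Plin2, which encodes a coat protein of lipid droplets, read 3477, 1857 and 1622 in the Ezh2 KO Th2, Th1 and unpolarized cultures, against 506, 673 and 469 in wild type. The log2 difference was 2.01 ± 0.69 (limma adjusted p = 0.037). Dgat2, an enzyme of triglyceride synthesis, rose by 0.56 ± 0.17. The desaturase gene Scd1 was lower in each Ezh2 KO culture, with 2387, 2096 and 2306 against 7213, 5495 and 5585 in wild type, and fell by 1.42 ± 0.16 (limma adjusted p = 0.02). The related Scd2 fell by 0.62 ± 0.14, the fatty acid oxidation gene Acadm by 0.70 ± 0.16 and the hormone-sensitive lipase gene Lipe by 1.18 ± 0.41. Lipe did not pass with quantile normalization (limma adjusted p = 0.0531). The cholesterol exporter gene Abca1 gave 1.54 ± 0.74, short of the threshold (limma adjusted p = 0.058). It passed with median centring (adjusted p = 0.0403), with the higher filter (0.0137) and with the higher floor (0.0402). The classical fat cell targets Fabp4, Cd36, Lpl, Pdk4, Cidec and Adipoq were too dim to test in these cells.

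Of the receptors for GM-CSF, IL-3 and IL-5, 3 were tested and 1, Csf2rb, was called higher. Against the 8.35% higher and 7.98% lower in all genes tested, so few genes give no result about this group. Csf2rb, the shared beta chain, read 141, 46.9 and 58.1 in the Ezh2 KO Th2, Th1 and unpolarized cultures, against 32.3, 13.5 and 15.9 in wild type. All wild type readings and 2 Ezh2 KO readings were under the low-signal limit. Csf2rb entered the test only through its Ezh2 KO Th2 reading, the group where it is high, so its call is weak support. The log2 difference was 1.93 ± 0.17 (limma adjusted p = 0.0177), and with the floor at the 40th percentile it was 0.96 and did not pass (adjusted p = 0.125). Like Pparg, Csf2rb was higher in Th2 than in Th1 cultures, by log2 1.42 over both genotypes, which did not pass. The alpha chain genes Csf2ra (0.44 ± 0.91) and Il3ra (-0.67 ± 0.56) did not pass. Il3ra read 204, 97.2 and 71.9 in Ezh2 KO, against 207, 187 and 148 in wild type.

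Of 17 tested genes of the IL-33 and IL-1 family pathway, to which ST2 belongs, 6 rose, 0 fell and 11 did not pass, with a median of 0.46. Among all genes 8.35% passed as higher and 7.98% as lower. With the filter at the 60th percentile, 5 of the pathway's genes rose and 1 fell. The signalling genes Irak1 and Traf6 and the receptor gene Il1rap were lower in each Ezh2 KO culture without passing. Il18, a cytokine of the IL-1 family, rose by 2.33 ± 0.50, with 291, 245 and 300 in Ezh2 KO, against 47.9, 72.4 and 48.0 in wild type. Both chains of the IL-18 receptor rose, Il18r1 by 1.60 ± 0.08 and Il18rap by 0.95 ± 0.04. Il1rl2, the IL-36 receptor gene, gave 0.96 ± 0.22 and passed, but with the mean of all its probe sets it gave 0.33 and did not pass (limma adjusted p = 0.192). Other genes that rose were the inhibitory receptor gene Sigirr, by 0.55 ± 0.14, and the kinase gene Map3k7, by 0.75 ± 0.11. Il1rap, the chain that ST2 pairs with to signal, gave -0.28 ± 0.21 and did not pass. The decoy receptor gene Il1r2 read 572 in Ezh2 KO Th2 cultures against 34.7 in wild type Th2 cultures, and its mean difference of 1.97 ± 1.82 did not pass (limma adjusted p = 0.159). The ligand gene Il33 was too dim to test.

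On chromosome 1, Il1rl1 lies in a cluster with Il1r2, Il1rl2, Il18r1 and Il18rap. Of 5 tested genes in the list of its neighbours, 3 rose and 0 fell: Il1rl2, Il18r1 and Il18rap, which are also counted above. With the mean of all probe sets the count was 2, without Il1rl2. The shares over all genes tested were 8.35% higher and 7.98% lower. Mfsd9 gave -0.27 ± 0.22 and did not pass.

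**Figure D4:**
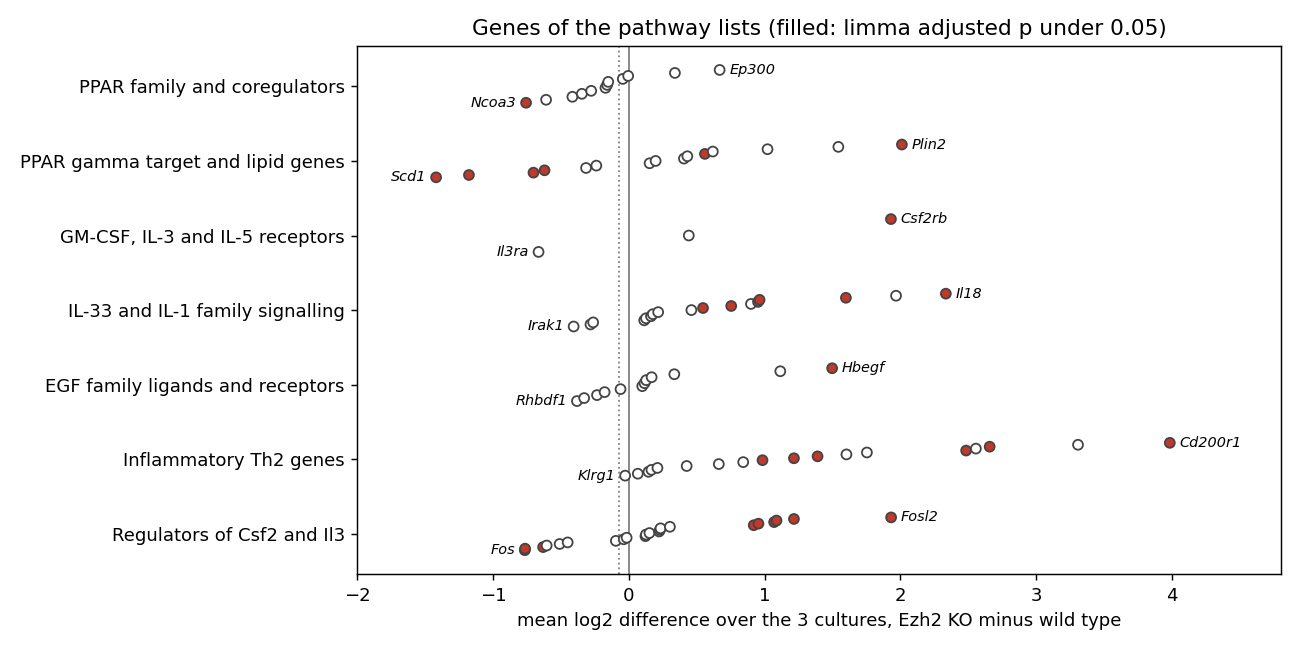
Mean log2 difference (Ezh2 KO minus wild type) over the 3 cultures for each tested gene of the 7 pathway lists, 1 circle per gene, filled where the limma adjusted p was under 0.05, with the lowest and highest gene of each list named and the median of all genes tested (-0.07) dotted. The coregulator list lies around 0, whereas Csf2rb, Plin2, Il18, Hbegf, Cd200r1 and Fosl2 stand at the right end of their lists at 1.50 to 3.98.

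Among EGF family ligands and receptors, the group of Areg, 1 of 12 tested genes rose and 0 fell, with a median of 0.11. Against the 8.35% higher and 7.98% lower among all genes, this count gives no result about the group. The 1 that rose was Hbegf, a ligand of the EGF receptor like amphiregulin. Hbegf read 2912, 3300 and 3759 in the Ezh2 KO Th2, Th1 and unpolarized cultures, against 1422, 1221 and 925 in wild type. Its log2 difference was 1.50 ± 0.50 (limma adjusted p = 0.037). The receptor gene Egfr read from 168 to 219 in Ezh2 KO and from 157 to 181 in wild type. The sheddase regulator gene Rhbdf2 gave 1.12 ± 0.57 and did not pass (limma adjusted p = 0.0667). It passed with median centring, with the higher filter and with the higher floor (adjusted p = 0.042, 0.0177 and 0.0484). Among 4 tested genes in the list around Areg on chromosome 5, Afp, which encodes alpha-fetoprotein, rose by 1.20 ± 0.20 (0.87 with the mean of all probe sets, limma adjusted p = 0.0599), while Btc, Afm and Cxcl1 did not pass.

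Of 18 tested genes of inflammatory Th2 cells, 6 rose and 0 fell, with a median of 1.10. The shares over all genes tested were 8.35% higher and 7.98% lower. The 6 were Cd200r1, an inhibitory receptor, by 3.98 ± 1.01, Il4 by 2.66 ± 1.09, the leukotriene receptor gene Cysltr1 by 2.48 ± 0.47, Cd44, an adhesion receptor of activated cells, by 1.39 ± 0.12, Bhlhe40, a transcription factor needed for GM-CSF in mouse T cells, by 1.22 ± 0.25, and Il7r, a survival receptor, by 0.98 ± 0.18. Cysltr1 read 7158, 2726 and 3105 in the Ezh2 KO Th2, Th1 and unpolarized cultures, against 879, 589 and 668 in wild type, with the Th2 reading highest in each genotype. Il7r likewise read 6255, 2785 and 2776 in Ezh2 KO, against 3070, 1611 and 1264 in wild type. Gata3, the main Th2 factor, gave 0.84 ± 0.36 and did not pass. This list overlaps genes known from earlier results of these data, so its direction is not independent evidence.

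In that list, 3 other cytokine genes read far higher on the Ezh2 KO Th2 array than on the other 5 arrays. Il5 read 842, 27.8 and 57.4 in the Ezh2 KO Th2, Th1 and unpolarized cultures, against 31.2, 18.7 and 1.63 in wild type. Il13 read 555, 68.9 and 75.2 in Ezh2 KO, against 6.26, 23.1 and 8.72 in wild type. Il6 read 174, 3.86 and 28.3 in Ezh2 KO, against 5.50, 3.22 and 9.12 in wild type. None of these 3 passed (limma adjusted p = 0.132, 0.0859 and 0.223), and a difference between cultures in the genotype effect has no test here. Pparg differed from them in that its Ezh2 KO readings were also high in Th1 and unpolarized cultures. The thymic stromal lymphopoietin receptor gene Crlf2 and the IL-4 receptor gene Il4ra did not pass (0.21 ± 0.12 and 0.07 ± 0.23).

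Of 22 tested regulators of Csf2 and Il3, 6 rose and 3 fell, with a median of 0.14, and with median centring 0 fell. In all genes tested, 8.35% passed as higher and 7.98% as lower. Besides Bhlhe40, the AP-1 family genes Fosl2 (1.93 ± 0.36), Jun (0.95 ± 0.13) and Batf (1.07 ± 0.29) rose, with Runx3 (0.92 ± 0.23) and Rora (1.09 ± 0.30). Rora did not pass with the mean of all probe sets (0.78, limma adjusted p = 0.0656). Fos fell by 0.77 ± 0.18, Runx1, which is known to restrain or activate these cytokine genes by context, by 0.77 ± 0.19, and Stat5a by 0.63 ± 0.15. Fosl2 read 2045, 2175 and 1829 in the Ezh2 KO Th2, Th1 and unpolarized cultures, against 709, 474 and 436 in wild type. The NFAT genes Nfatc1 (-0.10 ± 0.17), Nfatc2 (0.23 ± 0.11) and Nfatc3 (0.22 ± 0.11), whose products carry the T cell receptor signal to these promoters, did not pass.

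The chromosome neighbours of Csf2 and Il3 ranged widely in their differences. Of 11 tested genes in the list, 2 rose and 1 fell, with a median of 0.41. Over all genes tested, 8.35% passed as higher and 7.98% as lower. Il4 rose as above, and Irf1, an interferon-induced factor, rose by 1.10 ± 0.36. The Th2 cytokine genes Il13 (3.31 ± 2.08) and Il5 (2.56 ± 2.10) had lower means than Csf2 (3.57), varied between cultures and did not pass. All wild type readings of both were under the low-signal limit, and both entered the test only through Ezh2 KO arrays. The carnitine transporter gene Slc22a5 fell by 0.48 ± 0.09, and did not pass with median centring, quantile normalization or the mean of all probe sets (limma adjusted p = 0.121, 0.0526 and 0.0992). The genes nearest to Csf2 and Il3 gave 0.27 ± 0.26 for P4ha2, -0.08 ± 0.81 for Pdlim4, 0.53 ± 0.99 for Slc22a21 and -1.98 ± 1.17 for Acsl6, and none passed. Acsl6, which lies beside Il3, read 122, 197 and 258 in the Ezh2 KO Th2, Th1 and unpolarized cultures, against 1016, 326 and 1146 in wild type. It was lower in each culture and passed with the filter at the 60th percentile (limma adjusted p = 0.023, against 0.0796). Rad50 (-0.06 ± 0.11) and Kif3a (0.41 ± 0.28), which flank the Il4 and Il13 genes, did not pass.

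Of 4 tested genes in the list of Pparg neighbours on chromosome 6, 0 rose and 0 fell: Mkrn2 (-0.37 ± 0.07, limma adjusted p = 0.0612), Tamm41 (-0.14 ± 0.14), Vgll4 (0.02 ± 0.13) and Atg7 (-0.05 ± 0.11). Mkrn2 passed with the filter at the 60th percentile (adjusted p = 0.023). Tmem40, the fifth gene after Pparg and outside that list, was chosen after its value was seen and rose by 1.26 ± 0.35 (limma adjusted p = 0.0328). The genes Syn2 and Timp4, directly before Pparg, were too dim to test. Against the 8.35% higher and 7.98% lower in all genes tested, 4 genes give no result about this list.

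**Figure D5:**
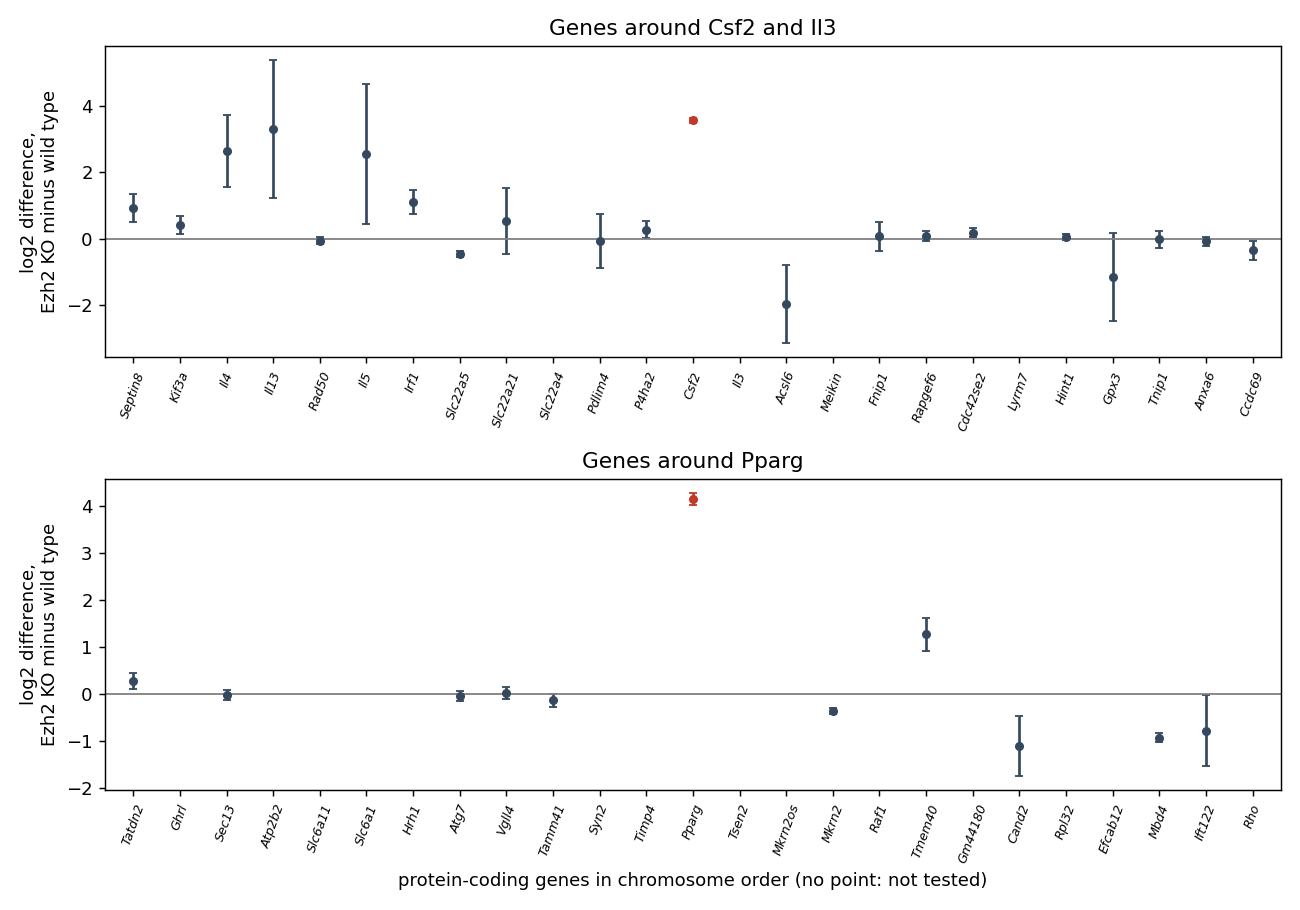
Mean log2 difference (Ezh2 KO minus wild type) ± SD over the 3 cultures for the protein-coding genes around Csf2 and Il3 (top) and around Pparg (bottom), in chromosome order, with Csf2 and Pparg in red and no point for a gene too dim to test or without a named probe set. Csf2 (3.57) stands apart from P4ha2 (0.27) beside it, and Pparg (4.15) from Tamm41 (-0.14) and Mkrn2 (-0.37).

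Markers of other cell types that can express these genes were read beside the members. In the genotype test 8.35% of all genes passed as higher and 7.98% as lower. The summed intensity of 7 CD4 T cell markers was 53860 to 59610 in Ezh2 KO and 58021 to 62417 in wild type, with Cd3d the largest part. Of these, Cd2 fell by 0.64 ± 0.13 (limma adjusted p = 0.0369). Cd4 and Cd5 were lower in each Ezh2 KO culture, and Cd3d, Cd3e, Cd3g and Zap70 higher, without passing. For mast cells and basophils, 12 of 13 markers had a named probe set, with sums of 428 to 1357 in Ezh2 KO and 330 to 349 in wild type. Of these, 9 never reached the low-signal limit, among them Mcpt8, Mcpt4, Fcer1a, Ms4a2 and Tpsb2. The 3 tested were Gata2, Kit and Cpa3. Gata2 fell, but it was above that limit only on wild type arrays, the group where it is high, so its call is weak support. Kit read 135, 146 and 257 in the Ezh2 KO Th2, Th1 and unpolarized cultures, against 100, 36.9 and 123 in wild type. Kit (1.16 ± 0.78) and Cpa3 (3.23 ± 2.06) were higher in each Ezh2 KO culture without passing (limma adjusted p = 0.0991 and 0.0879). On the Ezh2 KO Th2 array, which had the highest sum, Cpa3 read 1061 (25.5 in wild type Th2) and Mcpt8 read 64.1, just under the limit (2.86 in wild type Th2). For myeloid cells, 11 of 11 markers summed to 507 to 579 in Ezh2 KO and 389 to 588 in wild type, with Lyz2, Itgam, Itgax, Cd14, S100a8 and S100a9 under that limit throughout. In this list Mpeg1 rose by 2.95 ± 0.77 (limma adjusted p = 0.0286), with 98.2, 141 and 49.0 in the Ezh2 KO Th2, Th1 and unpolarized cultures, against 6.82, 11.0 and 8.41 in wild type. All wild type readings of Mpeg1 were under the floor. It entered the test only through Ezh2 KO arrays, the group where it is high, so its call is weak support. For type 2 innate lymphoid cells, 8 of 8 markers summed to 22561 to 28502 in Ezh2 KO and 12178 to 14277 in wild type, of which Id2 and Rora, also known in T cells, rose, and Zbtb16 was under the limit. The 6 regulatory T cell markers summed to 23682 to 32152 in Ezh2 KO and 27496 to 29249 in wild type, with 0 called. Tnfrsf18 and Il2ra were the largest parts of that sum. Foxp3 was above the limit only in wild type unpolarized cultures (69.3). Foxp3 and Ikzf2 were lower in each Ezh2 KO culture without passing, and Il2ra, Ctla4, Nrp1 and Tnfrsf18 differed in direction between cultures. The 6 NK cell markers with a probe set summed to 2675 to 4128 in Ezh2 KO and 177 to 369 in wild type, led by Klrd1. All 3 tested, Klrd1, Klrk1 and Fcer1g, rose, and Ncr1, Tyrobp and Klra8 were under the limit on every array. Fcer1g was under the limit on all wild type arrays and entered the test only through Ezh2 KO arrays, so its call is weak support too. The 5 B cell markers summed to 4414 to 5843 in Ezh2 KO and 7341 to 8634 in wild type. Most of that sum was Ighm, which fell by 0.79 ± 0.17, while Ms4a1 rose by 2.46 ± 1.05 (limma adjusted p = 0.0472), with 669, 189 and 210 in the Ezh2 KO Th2, Th1 and unpolarized cultures, against 63.5, 30.3 and 83.7 in wild type. The 2 CD8 chains summed to 374 to 540 in Ezh2 KO and 389 to 414 in wild type. The part of the markers that moved in the results for Pparg and Csf2 was not tested.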

How the data were processed

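The members and gene lists were chosen with earlier results of these data known. Per the labels' protocols, total RNA was labelled by 3' IVT. The authors deposited 1 linear intensity for each probe set on each array. Per the submitters' processing notes the software was Affymetrix Expression Console (version not stated), and how probes were summarized is not stated either. Of 45101 probe sets, 34945 have 1 symbol in the platform's annotation table and 932 have several.

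Intensities were raised to the floor and taken to log2, and each gene was represented by its brightest probe set on average. Genes that reached the low-signal limit on at least 1 array were tested. All 6 arrays were fitted together with limma 3.58.1 (R 4.3.3), with terms for genotype and culture but no interaction (2 residual degrees of freedom, prior 1.66), with eBayes and Benjamini-Hochberg adjustment at 0.05. Genes named are the members, up to 4 per list with the largest differences, all tested chromosome neighbours and the 4 nearest patterns; other genes of the lists were named after their values were seen. On simulated arrays (11572 genes, 200 changed) the genotype test recovered 46%, 89.5% and 97.5% of genes changed by log2 1, 2 and 4, with 9, 15 and 14 false calls. The number of arrays limits the precision.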

Additional observations from a re-analysis of the deposited data

How the results depend on the processing

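The mean genotype difference of Csf2 ranged from 3.53 to 3.61 on the log2 scale over 8 alternatives (median centring, quantile normalization, no floor with 1 added before the log, a higher floor, the mean of all probe sets, and each culture left out). That of Pparg ranged from 4.07 to 4.20 over the same alternatives except the floor at the 40th percentile, where it was 3.60 because the dim wild type readings are raised. For Il3 it ranged from 0.00 to 0.74, on readings without measurable signal. Pparg stayed higher in Th2 than in Th1 cultures (log2 1.21 to 1.63, adjusted p 0.342 to 0.724) and than in unpolarized cultures (1.42 to 2.04, adjusted p 0.351 to 0.728) over 12 alternatives including each array left out, and no culture contrast called any gene in any of them. Pparg is not tested when the filter requires a mean above the 60th percentile. In the lists together, the 23 higher and 9 lower genes became 0 and 0 with no filter, and likewise (0 to 0) on leaving out the pair of arrays of any culture. The lower count was 2 with median centring, 14 with the filter at the 60th percentile and 5 with the mean of all probe sets; the cause was not tested. The genotype test was paired by culture, which was its block.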

Other observations

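Farther along chromosome 6, outside the neighbour list and chosen after their values were seen, 2 genes within 12 protein-coding genes of Pparg passed the genotype test in limma. Tmem40 rose by 1.26 ± 0.35 (adjusted p = 0.0328), with 238, 181 and 154 in the Ezh2 KO Th2, Th1 and unpolarized cultures, against 85.8, 65.9 and 84.9 in wild type. Mbd4, a DNA glycosylase gene, fell by 0.93 ± 0.10 (adjusted p = 0.0243), with 205, 237 and 196 in Ezh2 KO, against 423, 434 and 360 in wild type. Between Pparg and Tmem40, Mkrn2 was the 1 gene tested, and it did not pass. The tested genes Tatdn2, Sec13, Cand2 and Ift122 in the same window did not pass, nor did those of the neighbour list. Among all genes tested, 8.35% passed as higher and 7.98% as lower, so these 2 genes give no result about the region.

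Nmur1, the neuromedin U receptor gene, read above the low-signal limit on the Ezh2 KO Th2 array alone, with 189, 43.2 and 37.3 in the Ezh2 KO Th2, Th1 and unpolarized cultures, against 5.37, 28.1 and 51.2 in wild type. Its mean difference of 1.41 ± 2.36 did not pass (limma adjusted p = 0.37).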
